A study of Homo sapiens with 9 samples.

Results

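Of the 16366 genes in the deposited table, 10 were taken by name as regulators and markers of the epithelial-mesenchymal transition (EMT): the transcription factors *SNAI1*, *SNAI2*, *ZEB1*, *ZEB2* and *TWIST1*, the cadherins *CDH2* and *CDH3*, the filament protein gene *VIM*, the matrix gene *FN1* and the receptor gene *AXL*. All 10 were found. The rule used their names alone, but the names were chosen with earlier results of these data known. They were followed in Cal-27, a cell line from a tongue squamous carcinoma that the labels give as WT, in 3 groups of 3 poly(A) RNA libraries. The first group received CAF exosomes, vesicles released by fibroblasts associated with cancer, in a co-culture of 48 h. The second received hOMF exosomes for the same 48 h, an abbreviation that the labels leave unexplained and spell in 2 ways. The third group is labelled as normal control. All cells were grown in high-glucose DMEM with fetal bovine serum. Nothing in the labels ties the replicates to separate cultures, and each p-value therefore reflects library-to-library spread that may be technical. Results come from 1 cell line, and in bulk RNA fewer cells of a type and less RNA per cell cannot be told apart.

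In EMT, epithelial cells loosen their junctions and take on a motile, matrix-producing state. SNAI, ZEB and TWIST proteins drive it, in part by binding E-boxes in the promoters of epithelial genes such as *CDH1*, which encodes E-cadherin, and repressing them. Vimentin, fibronectin and N-cadherin mark the mesenchymal side. In oral carcinoma, cells often stop at a partial state that keeps epithelial keratins while expressing *SNAI2*, P-cadherin and matrix genes.

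RefSeq promoter windows on GRCh38.p14, reaching from 250 bases before to 50 bases after an annotated start, were matched for 6 of the 10 genes: *VIM*, *FN1*, *CDH2*, *ZEB1*, *ZEB2* and *AXL*. The E-box bound by SNAI and ZEB proteins was searched as CAGGTG and as its reverse complement CACCTG, which covers both strands. Of all 35116 windows, 20.6% held it. Shown are *AXL*, which was higher with either kind of exosome, *VIM* and *ZEB2*, which stood apart in 1 control library, and the third of the 7 windows of *ZEB1*, which held the most E-boxes. For *AXL* the first of 2 windows is shown. Capitals mark the E-box. The windows are chr19:41218973-41219272 on the plus strand for *AXL*, chr10:31318966-31319265 on the plus strand for *ZEB1*, chr10:17227991-17228290 on the plus strand for *VIM* and chr2:144520070-144520369 on the minus strand for *ZEB2*.
AXL: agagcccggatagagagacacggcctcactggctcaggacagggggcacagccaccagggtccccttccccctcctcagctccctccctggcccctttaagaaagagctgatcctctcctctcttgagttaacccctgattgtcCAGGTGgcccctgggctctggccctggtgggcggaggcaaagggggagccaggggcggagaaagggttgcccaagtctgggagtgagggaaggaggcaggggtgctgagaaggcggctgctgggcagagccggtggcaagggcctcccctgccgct
ZEB1: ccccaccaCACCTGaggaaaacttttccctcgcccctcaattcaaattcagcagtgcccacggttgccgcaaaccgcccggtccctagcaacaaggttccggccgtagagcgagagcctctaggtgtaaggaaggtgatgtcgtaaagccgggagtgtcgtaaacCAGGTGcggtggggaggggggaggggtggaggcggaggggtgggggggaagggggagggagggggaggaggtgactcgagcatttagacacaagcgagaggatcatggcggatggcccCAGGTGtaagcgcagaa
VIM: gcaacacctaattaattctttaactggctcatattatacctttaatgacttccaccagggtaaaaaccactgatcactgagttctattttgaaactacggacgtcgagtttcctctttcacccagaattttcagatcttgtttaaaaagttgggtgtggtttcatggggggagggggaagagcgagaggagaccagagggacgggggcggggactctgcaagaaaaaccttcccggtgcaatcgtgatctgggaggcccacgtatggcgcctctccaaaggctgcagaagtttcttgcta
ZEB2: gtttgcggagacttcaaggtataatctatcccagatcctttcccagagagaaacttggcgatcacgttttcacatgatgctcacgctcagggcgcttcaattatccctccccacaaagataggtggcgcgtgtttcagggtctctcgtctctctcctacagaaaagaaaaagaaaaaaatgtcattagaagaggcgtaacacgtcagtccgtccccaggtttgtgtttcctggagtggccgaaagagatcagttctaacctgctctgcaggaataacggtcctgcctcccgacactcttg
The *AXL* window held 1 E-box, at base 145, and the *ZEB1* window held 3, at bases 9, 166 and 284. Those of *VIM* and *ZEB2* held 0, as did the second *AXL* window, chr19:41226505-41226804. The windows of *FN1* and *CDH2*, not shown, also held 0. Among the other windows of *ZEB1*, the first held 1 and the rest 0. GC content was 66.0% in the first *AXL* window and 53.7% in the second, against 48.0% for *VIM* and 49.0% for *ZEB2*, and 57.5% over all windows. A match describes these letters alone and shows no binding.

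Libraries summed to between 11185672 and 12779101 expected counts. Control replicate 3 stood apart: 186 genes were at least 3-fold higher there than in every other library, while no other library had more than 1 such gene. Picked out after looking at the values, the neutrophil granule genes *ELANE*, *AZU1*, *PRTN3* and *CTSG* summed to 152 CPM in control replicate 3 and to 0.0851 to 0.454 CPM elsewhere. CPM are counts scaled to library size, with totals adjusted by the trimmed mean of M values (TMM). The leukocyte markers (8 of 11 in the table) summed to 59.0 CPM there and 44.8 to 53.4 CPM elsewhere. Squamous markers (15 of 15 in the table, among them *KRT5*, *TP63* and *CDH1*) were present in every library, with sums of 9696 to 10400 CPM with CAF exosomes, 8947 to 9529 CPM with hOMF exosomes and 7260 to 9193 CPM in control. Fibroblast markers (14 of 15) summed to 231 to 245 CPM, 215 to 241 CPM and 198 to 241 CPM in the same order. *COL3A1*, *POSTN*, *THY1* and *FAP* were at 0 to 0.0909 CPM in every library, so the sums came from other markers of the list. Of the 5 fibroblast markers tested, *LUM* alone had an adjusted p under 0.05 in the edgeR test described below. It was higher by 1.06 with CAF exosomes (log2, adjusted p = 0.00805) and by 0.94 with hOMF exosomes (adjusted p = 0.013). The second was lost without hOMF exosome replicate 2 (0.071). Of 15 squamous markers tested, 8 rose and 1 fell at such a p with CAF exosomes, and 3 rose and 1 fell with hOMF exosomes. Without control replicate 3, 4 rose and 1 fell, and 1 rose and 2 fell. Of 4 leukocyte markers tested, 0 rose and 0 fell with CAF exosomes, and 0 rose and 2 fell with hOMF exosomes. Of 3 endothelial markers tested, 0 rose and 1 fell with each. Of all genes tested, 18.2% and 23.2% had such a p, 9.52% and 11.8% as higher. *VIM* and *ZEB2* are given below with and without control replicate 3.

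Across genes, the authors' FPKM, which divide fragments by transcript length and library size, allow levels to be set side by side. *CDH3* was the most abundant, averaging 159 ± 16.1 FPKM (SD over all 9 libraries). *FN1* followed at 42.5 ± 3.94, *AXL* at 32.3 ± 3.76, *SNAI2* at 27.7 ± 1.66 and *CDH2* at 12.1 ± 1.2 FPKM. The ranges of *FN1* and *AXL* overlapped, as did those of *AXL* and *SNAI2*, whereas *CDH3* lay above and *CDH2* below all of these. The other genes were scarce. *VIM* ranged from 0.15 to 0.38 FPKM in 8 libraries and reached 23.7 FPKM in control replicate 3. *TWIST1* averaged 0.996 ± 0.438 FPKM, *SNAI1* 0.697 ± 0.354, *ZEB1* 0.3 ± 0.127 and *ZEB2* 0.256 ± 0.48, with overlapping ranges. Among the transcription factors, *SNAI2* alone was abundant, and the vimentin gene, a defining mesenchymal marker, was near 0 in all but 1 library.

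**Figure D1:**
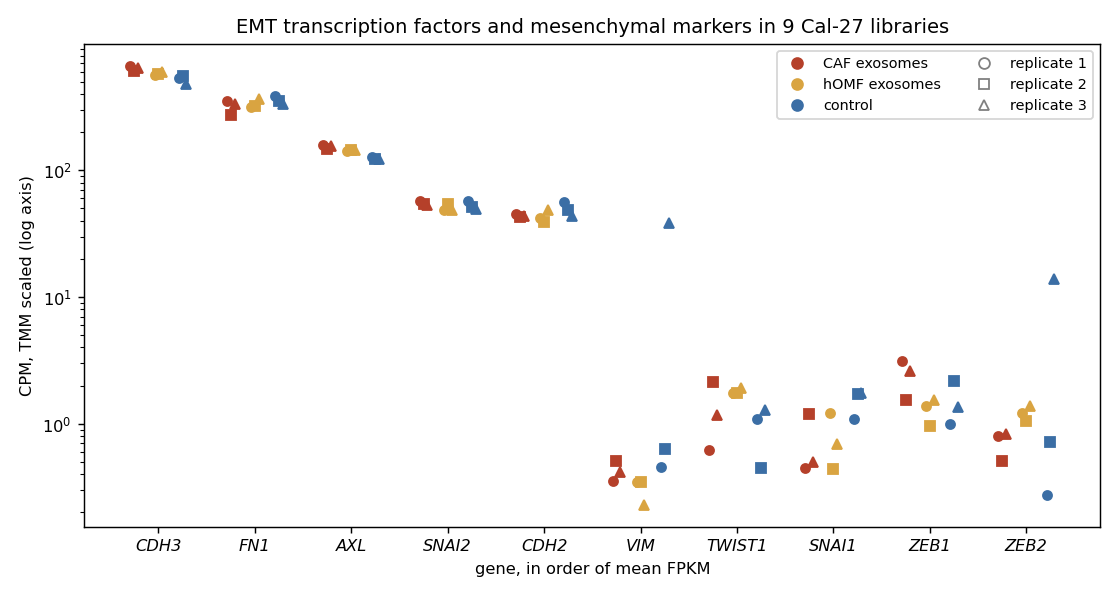
CPM of each of the 10 genes in every library on a log axis, ordered by mean FPKM, with colour for the group and shape for the replicate number. *CDH3* lies between 484 and 667 CPM, the 5 scarce genes lie under 4 CPM, and only control replicate 3 stands apart, at 38.1 CPM for *VIM* and 13.9 CPM for *ZEB2*.

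With CAF exosomes, *AXL* and *CDH3* rose and *ZEB2* fell against control, 3 calls among the 9 genes tested. Called means an adjusted p under 0.05 in edgeR's quasi-likelihood test with Benjamini-Hochberg adjustment over 12470 genes. *VIM* did not pass the filter on low counts and was not tested. Of all genes tested, 18.2% were called in this comparison (9.52% higher, 8.64% lower). Without control replicate 3, *AXL* was the 1 call among the 9, against 11.5% of all genes. With hOMF exosomes, *AXL* was the 1 call, a rise, against 23.2% of all genes tested (11.8% higher, 11.4% lower). Without control replicate 3 edgeR called 0 of the 9, against 16% of all genes, and 4 of the 9 had an unadjusted p under 0.05, against 31.4% of all genes. The median log2 fold change of the 9 was 0.05 with CAF exosomes and -0.09 with hOMF exosomes, beside -0.01 and 0.00 over all genes. Without control replicate 3 the medians of the 9 were 0.22 and -0.11. Both comparisons share the 3 control libraries.

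With CAF exosomes, 2 of the 9 tested genes (*AXL*, *CDH3*) were above control in every library and 0 were below in every library, against 18% and 18.2% of all genes tested. With hOMF exosomes 3 of the 9 (*AXL*, *CDH3*, *TWIST1*) were above and 0 below, against 20.2% and 19.3%. In CAF exosomes against hOMF exosomes, 3 (*AXL*, *CDH3*, *ZEB1*) were above and 1 (*ZEB2*) below, against 7.15% and 6.59%. These counts are on CPM. On the authors' FPKM the CAF and hOMF exosome libraries of *CDH3* and *ZEB1* overlapped, and those of *AXL* and *ZEB2* did not.

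*AXL* encodes a receptor tyrosine kinase of the TAM family that is bound by GAS6 and is linked in carcinomas to EMT and drug tolerance. On GRCh38 (GENCODE release 29) the gene lies on the plus strand, chr19:41219203-41261766. It measured 160, 148 and 154 CPM in the 3 CAF exosome libraries, 142, 145 and 145 CPM in the 3 hOMF exosome libraries and 127, 123 and 123 CPM in the 3 control libraries. Means were 154 ± 5.77, 144 ± 1.4 and 124 ± 1.95 CPM (SD, n = 3 each). Every CAF exosome library lay above every hOMF exosome library, and all 6 lay above every control library.

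With CAF exosomes *AXL* was 1.24-fold higher than in control, a log2 fold change of 0.31 (SE 0.0638, 95% interval 0.175 to 0.446, adjusted p = 0.00402). It remained called under all 18 alternatives run, where the adjusted p ranged from 0.000293 to 0.0229. With hOMF exosomes it was 1.16-fold higher, a log2 fold change of 0.21 (SE 0.0639, interval 0.0757 to 0.346, adjusted p = 0.0259). That call was lost without hOMF exosome replicate 2 (adjusted p = 0.0896), control replicate 2 (0.0822) or control replicate 3 (0.0709), with the log2 fold change between 0.20 and 0.21. The difference between CAF and hOMF exosomes was 0.10 (SE 0.0634, interval -0.0351 to 0.234, adjusted p = 0.776), so the 2 kinds of exosome were not told apart for *AXL* although their libraries did not overlap. Squamous marker sums were likewise highest with CAF exosomes, and their part in the *AXL* and *CDH3* values was not tested.

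*CDH3* encodes P-cadherin, an adhesion protein of basal epithelial cells that belongs to the partial EMT program of oral carcinoma. The gene lies on chr16:68636189-68722616, plus strand, just before *CDH1* at chr16:68737225-68835548 on the same strand. It measured 667, 612 and 638 CPM with CAF exosomes, 568, 572 and 593 CPM with hOMF exosomes and 539, 555 and 484 CPM in control. Every CAF exosome library exceeded every hOMF exosome library on CPM but not on FPKM, and each of those exceeded every control library. With CAF exosomes *CDH3* was 1.22-fold higher than in control (log2 0.28, SE 0.0708, interval 0.131 to 0.432, adjusted p = 0.0129). This call was lost under 1 of 18 alternatives, without control replicate 3 (log2 0.22, adjusted p = 0.0587). With hOMF exosomes the log2 fold change was 0.14 (SE 0.0708, interval -0.0138 to 0.286, adjusted p = 0.174), not called in the main test but called by limma on log2(FPKM + 1) and on log2(FPKM + 0.1). CAF exosomes differed from hOMF exosomes by 0.15 (SE 0.0707, interval -0.00471 to 0.295, adjusted p = 0.671).

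*CDH2* encodes N-cadherin, the cadherin of neural and mesenchymal cells. Its libraries held 45.2, 42.5 and 43.4 CPM with CAF exosomes, 41.7, 39.0 and 48.3 CPM with hOMF exosomes and 56.0, 48.4 and 43.9 CPM in control. Both exosome groups overlapped control, whose lowest library was within their range. The log2 fold changes were -0.18 (SE 0.0979, adjusted p = 0.223) with CAF exosomes and -0.20 (SE 0.0977, adjusted p = 0.155) with hOMF exosomes.

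Relative to E-cadherin, the ratio of *CDH3* to *CDH1* FPKM averaged 1.19 ± 0.0766 with CAF exosomes, 1.15 ± 0.0357 with hOMF exosomes and 1.04 ± 0.0606 in control (SD, n = 3 each). The exact two-sided permutation p was 0.2 for CAF exosomes against control and 0.1 for hOMF exosomes against control, which is the smallest p that 3 against 3 libraries can give. Benjamini-Hochberg adjustment over 6 such tests gave 0.3 for both. For *CDH2* over *CDH1* the ratios were 0.0803 ± 0.0063, 0.0826 ± 0.00902 and 0.0953 ± 0.00542 in the same order, with exact p = 0.1 and 0.2 and adjusted p = 0.3 for both. *CDH1* itself was not called with either kind of exosome, with log2 fold changes of 0.08 and 0.00. No change of the cadherin ratios passed a test, and this design could not reach an exact p under 0.05.

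**Figure D2:**
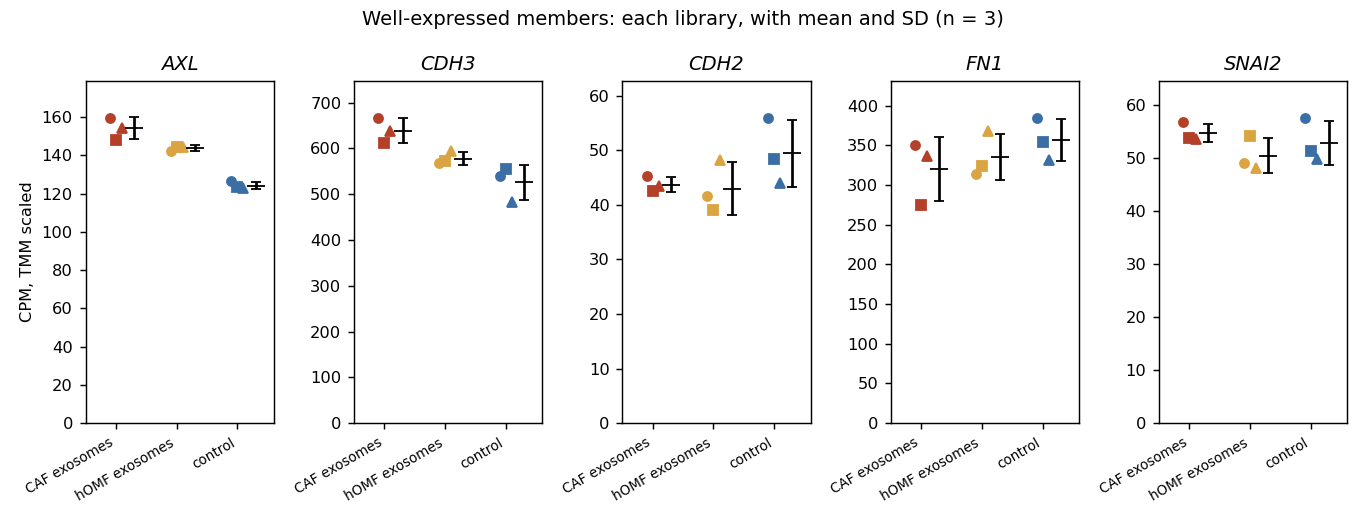
CPM of the 5 well-expressed genes in each library (points), with mean and SD (n = 3) and axes from 0. *AXL* and *CDH3* show 3 groups without overlap, highest with CAF exosomes, whereas the groups of *CDH2*, *FN1* and *SNAI2* overlap.

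*FN1* encodes fibronectin, a matrix glycoprotein that EMT commonly raises. It measured 350.2, 274 and 336 CPM with CAF exosomes, 314, 323 and 368 CPM with hOMF exosomes and 385, 354 and 332 CPM in control, so the 3 groups overlapped. The log2 fold change was -0.16 (SE 0.0938, adjusted p = 0.264) with CAF exosomes and -0.09 (SE 0.0937, adjusted p = 0.525) with hOMF exosomes. *SNAI2* encodes SLUG, the SNAI factor typical of basal and squamous epithelium. Its values were 56.9, 53.8 and 53.7 CPM with CAF exosomes, 49.1, 54.3 and 48.3 CPM with hOMF exosomes and 57.7, 51.4 and 49.9 CPM in control. Groups overlapped here too, and the log2 fold changes were 0.05 (SE 0.0797, adjusted p = 0.704) and -0.07 (adjusted p = 0.575).

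The remaining transcription factors had few counts. *SNAI1*, the prototype repressor of *CDH1*, had 0.446, 1.19 and 0.5 CPM with CAF exosomes, 1.21, 0.437 and 0.687 CPM with hOMF exosomes and 1.09, 1.72 and 1.75 CPM in control. The groups overlapped only through the highest exosome libraries. Its log2 fold changes were -1.08 (SE 0.423, adjusted p = 0.0858) and -0.96 (SE 0.414, adjusted p = 0.103) with CAF and hOMF exosomes, neither of them called. Of the 17 alternatives that tested it, 1 called the CAF exosome value, the one without CAF exosome replicate 2 (-1.66, adjusted p = 0.0307). The other 16 did not (adjusted p up to 0.259).

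*ZEB1*, a repressor that pairs with the miR-200 family in a feedback loop, had 3.12, 1.53 and 2.59 CPM with CAF exosomes, 1.39, 0.961 and 1.53 CPM with hOMF exosomes and 0.999, 2.17 and 1.36 CPM in control. It differed by 0.67 with CAF exosomes (SE 0.333, adjusted p = 0.171) and by -0.21 with hOMF exosomes (SE 0.363, adjusted p = 0.719), both against control. *TWIST1*, a basic helix-loop-helix factor, had 0.624, 2.13 and 1.17 CPM with CAF exosomes, 1.73, 1.75 and 1.91 CPM with hOMF exosomes and 1.09, 0.451 and 1.28 CPM in control. Every hOMF exosome library lay above every control library, yet the log2 fold change of 0.92 was not called (SE 0.405, adjusted p = 0.113). With CAF exosomes it was 0.46 (SE 0.428, adjusted p = 0.481).

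*ZEB2*, the second ZEB repressor, which is also expressed in blood cells, measured 0.802, 0.510 and 0.834 CPM with CAF exosomes, 1.21, 1.05 and 1.38 CPM with hOMF exosomes and 0.273, 0.722 and 13.9 CPM in control. Control replicate 3 held 174 of its counts, against 3 to 18 in the other libraries. The other 2 control libraries lay below every hOMF exosome library, and 1 of them below every CAF exosome library. With all libraries the log2 fold change with CAF exosomes was -2.82 (SE 0.938, interval -4.80 to -0.829, adjusted p = 0.0473). It was 0.51 without control replicate 3 (SE 0.519, adjusted p = 0.56), and the call was also lost without any 1 library of the CAF or hOMF exosome groups (adjusted p between 0.0573 and 0.131) and in limma on log2(FPKM + 1) or log2(FPKM + 0.1). With hOMF exosomes it was -2.06 (SE 0.849, adjusted p = 0.0901), and 1.27 without control replicate 3 (adjusted p = 0.0739). It was called without control replicate 1 (-2.60, adjusted p = 0.0154) or control replicate 2 (-2.56, adjusted p = 0.0372).

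*VIM* encodes vimentin, the intermediate filament protein of mesenchymal cells and of leukocytes, on chr10:17228259-17237593, plus strand. It measured 0.357, 0.510 and 0.417 CPM with CAF exosomes, 0.347, 0.350 and 0.229 CPM with hOMF exosomes and 0.454, 0.632 and 38.1 CPM in control. Control replicate 3 held 478 *VIM* counts, while the other 8 libraries held 3 to 7 counts. The exact 95% binomial interval for control replicate 3 was 34.6 to 41.5 CPM, here without TMM and for counting error only. Tested with no filter on low counts, *VIM* fell by 4.91 with CAF exosomes (SE 1.2, adjusted p = 0.0113) and by 5.40 with hOMF exosomes (SE 1.26, adjusted p = 0.00671), with 478 counts in that 1 control library. Without control replicate 3, a setting chosen after seeing the data, the values were -0.34 (SE 0.623, interval -1.61 to 0.934, adjusted p = 0.804) and -0.81 (SE 0.66, interval -2.16 to 0.533, adjusted p = 0.491), neither of them called.

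In that same library *PTPRC*, the pan-leukocyte marker CD45, had 7.49 CPM and at most 0.0909 CPM elsewhere. It is 1 of the 8 leukocyte markers in the table, which summed to 59.0 CPM there and 44.8 to 53.4 CPM elsewhere. Without *PTPRC*, the sum of that list in control replicate 3 lay within the range of the other libraries. *SRGN*, the granule proteoglycan serglycin, had 109 CPM there and 0.0909 to 0.535 CPM elsewhere. Leukocytes express both *VIM* and *ZEB2*. The part of this library's other RNA in the *VIM* and *ZEB2* values was not tested.

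**Figure D3:**
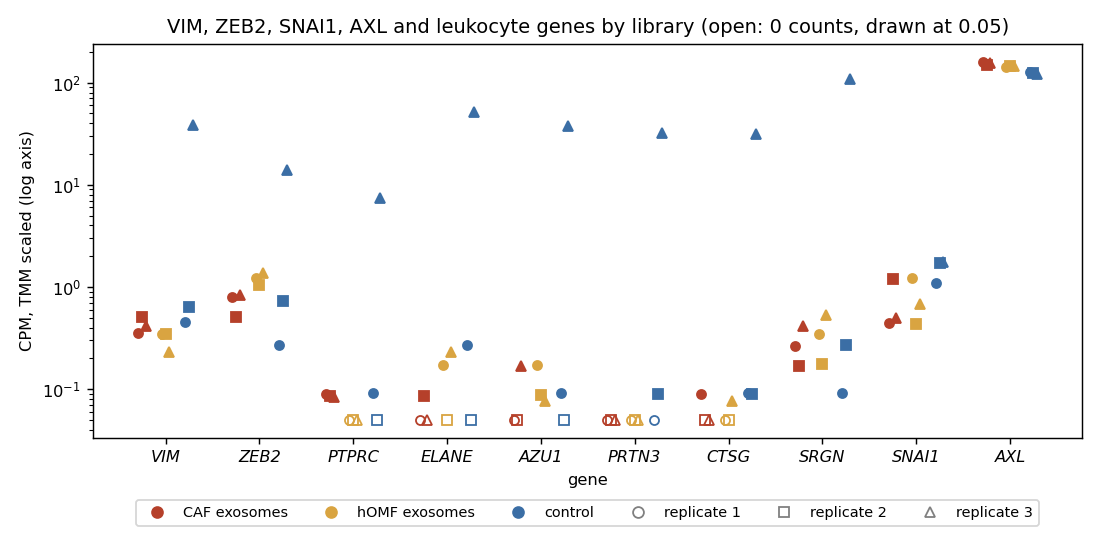
CPM on a log axis of *VIM*, *ZEB2* and the leukocyte genes *PTPRC*, *ELANE*, *AZU1*, *PRTN3*, *CTSG* and *SRGN*, with *SNAI1* and *AXL* for comparison, in each library; open symbols had 0 counts and are drawn at 0.05. Control replicate 3 lies above 7 CPM for the first 8 genes and with its group for *SNAI1* and *AXL*.

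Set directly against each other, CAF and hOMF exosomes gave 0 calls among the 9 tested genes in edgeR's quasi-likelihood test, against 0.016% of all genes. DESeq2 and limma on log2(FPKM + 1) also called 0 of the 9, against 32 and 0 of all 12470 genes. At an unadjusted p under 0.05 there was 1 of the 9 in edgeR, which was *ZEB1*, with 2 in DESeq2 and 0 in limma on log2(FPKM + 1). Of all genes tested, 7.59%, 5.16% and 8.04% had such a p in the same 3 tests. *ZEB1* differed by 0.88 (SE 0.338, adjusted p = 0.55). Its lowest CAF exosome library and its highest hOMF exosome library both measured 1.53 CPM, and on FPKM they overlapped, at 0.26 and 0.27. All 3 CAF exosome libraries lay below all 3 hOMF exosome libraries for *ZEB2* (difference -0.76, SE 1.15, adjusted p = 0.935).

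**Figure D4:**
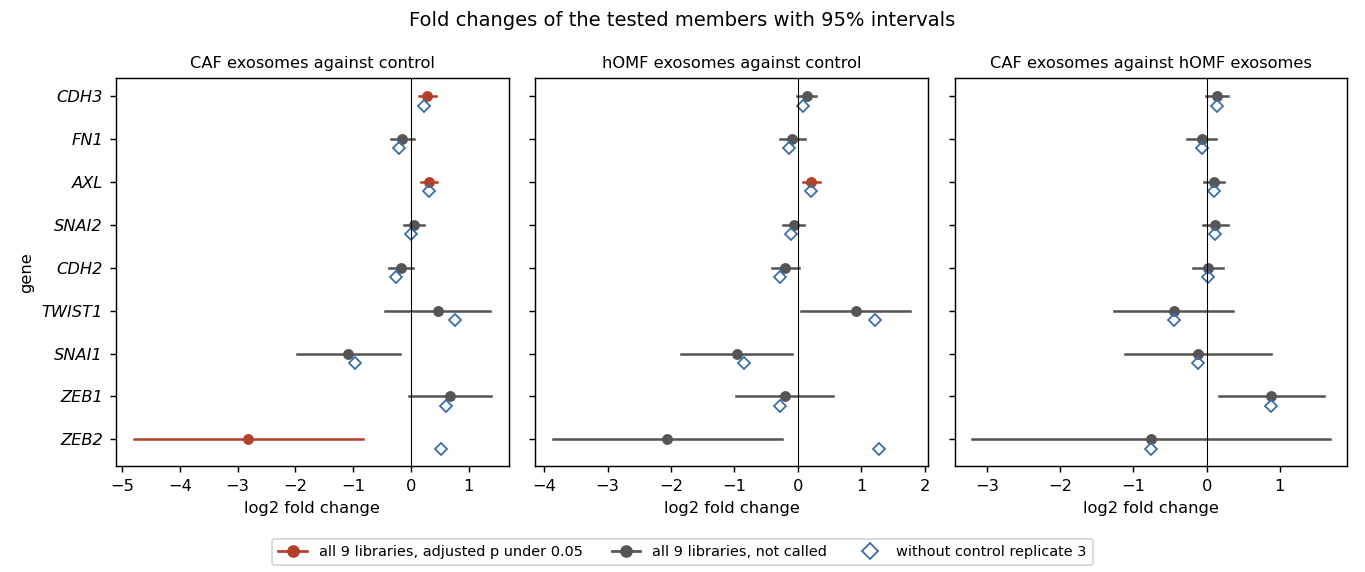
Log2 fold changes of the 9 tested genes (points) with 95% intervals in the 3 comparisons, first-named group over the second; diamonds are the values without control replicate 3. Red marks adjusted p under 0.05. For *ZEB2* with CAF exosomes the value is -2.82 with all libraries and 0.51 without that library, and for *AXL* it is 0.31 and 0.30.

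Genes with the most similar profile over the 9 libraries were sought among 11338 tested genes with a mean of at least 1 FPKM, by the root mean square distance between centred log2 CPM. For *AXL* these were *SLC12A9* (0.0304) and *MARCHF6* (0.0345). *CDH3* was nearest to *SLCO3A1* (0.0318) and *PIGO* (0.0365), *FN1* to *UHMK1* (0.0351) and *FOXO3* (0.0416), *CDH2* to *PPA1* (0.0546) and *OAT* (0.0587), and *SNAI2* to *C16orf72* (0.0357) and *CXADR* (0.0412). The scarce genes had no close match: the nearest of *SNAI1* were *IL17C* (0.386) and *CCL5* (0.388), of *ZEB1* *PCDHGA6* and *MARVELD2* (0.365 each), and of *TWIST1* *PPM1N* (0.316) and *ALOX5AP* (0.395). *ZEB2* was nearest to *CLEC11A* (0.622) and *CEBPA* (0.809), which measured 37.0 and 40.1 CPM in control replicate 3 and at most 2.34 and 10.8 CPM elsewhere.

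Of 12 tested genes in a list of TAM receptors, their ligands and partners of AXL, 3 rose with each kind of exosome and 0 fell, *AXL* included. In either direction 18.2% and 23.2% of all genes tested were called, 9.52% and 11.8% as higher and 8.64% and 11.4% as lower, and 11.5% and 16% without control replicate 3. The median log2 fold change was 0.13 with CAF exosomes and 0.07 with hOMF exosomes. *PROS1*, the gene of the TAM ligand protein S, was higher by 0.35 (adjusted p = 0.0249) and 0.45 (adjusted p = 0.00483). Leaving out replicate 1 or 3 of the CAF exosome group, or control replicate 2, ended the first of these calls (adjusted p between 0.0593 and 0.0739), as did leaving out control replicate 3 (0.23, adjusted p = 0.115). *EGFR*, a receptor that AXL can act with, was higher by 0.38 (adjusted p = 0.0259) and 0.34 (adjusted p = 0.0361). Both *EGFR* calls were lost without control replicate 3 (0.30, adjusted p = 0.0995, and 0.26, adjusted p = 0.133) and without control replicate 2 (adjusted p = 0.0711 and 0.0874), and each in turn without several exosome libraries. Without control replicate 3 the list had 1 rise in each comparison (medians 0.11 and 0.05), and with any other 1 library left out the rises lay between 1 and 3.

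Among 19 tested other EMT transcription factors and cofactors, 1 rose and 2 fell with CAF exosomes, and 1 rose and 4 fell with hOMF exosomes (medians -0.12 and -0.13). Together that is 3 and 5 of 19, beside 18.2% and 23.2% of all genes. *FOXQ1*, a forkhead factor that represses *CDH1*, fell by 1.198 (SE 0.226, adjusted p = 0.00227) and by 1.13 (SE 0.223, adjusted p = 0.00217). *ID1*, an inhibitor of basic helix-loop-helix factors, rose by 0.56 (adjusted p = 0.01) and 0.77 (adjusted p = 0.000804), the first lost without CAF exosome replicate 3 (0.50, adjusted p = 0.054). *KDM1A*, a histone demethylase that works with SNAI1, fell by 0.33 with CAF exosomes (adjusted p = 0.00625). With hOMF exosomes *TCF3*, the gene of the E proteins E12 and E47, fell by 0.28 (adjusted p = 0.0154), and *EZH2*, a histone methyltransferase gene, fell by 0.35 (adjusted p = 0.0252). Of the 18 alternatives, 5 ended the call of *TCF3* and 7 that of *EZH2* (adjusted p up to 0.0671 and 0.103). Control replicate 3 left out, 1 rose and 3 fell in each comparison (medians -0.13 and -0.08), and *EZH2* was among the calls lost (adjusted p = 0.0976). With any 1 library left out, falls lay between 2 and 3 with CAF exosomes and between 1 and 4 with hOMF exosomes, lowest without hOMF exosome replicate 2 or control replicate 2.

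Epithelial junction and polarity genes lie on the side that EMT lowers. Of 24 tested, 0 rose and 1 fell with CAF exosomes, and 3 rose and 2 fell with hOMF exosomes (medians 0.03 and -0.02). That is 1 and 5 of 24, beside 18.2% and 23.2% of all genes. *TJP3*, a tight junction scaffold gene, rose by 0.84 with hOMF exosomes (SE 0.132, adjusted p = 0.000384). Also with hOMF exosomes, *LLGL2*, a polarity gene, rose by 0.27 (adjusted p = 0.0214) and *PATJ*, a tight junction and polarity gene, by 0.32 (adjusted p = 0.0245). *ST14*, the gene of the protease matriptase, fell by 0.29 (adjusted p = 0.0128). The calls of *LLGL2* and *PATJ* were lost without control replicate 3 (adjusted p = 0.0664 and 0.111) and hOMF exosome replicate 2, and 2 other libraries each ended them too. Leaving out hOMF exosome replicate 2 or 3 or control replicate 2 ended that of *ST14* (adjusted p up to 0.0763). Without control replicate 3, 0 rose and 1 fell with CAF exosomes and 1 rose and 2 fell with hOMF exosomes (medians -0.02 and -0.08). With any 1 library left out, rises with CAF exosomes lay between 0 and 3, highest without CAF exosome replicate 2, and falls between 0 and 2. With hOMF exosomes rises lay between 1 and 4, with 1 also without hOMF exosome replicate 2. Falls there lay between 0 and 4, with 0 without hOMF exosome replicate 2 or control replicate 2 and 4 without CAF exosome replicate 2.

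Of 10 tested guardians of the epithelial state, which keep EMT factors in check, 0 rose and 1 fell with CAF exosomes and 1 rose and 2 fell with hOMF exosomes, beside 18.2% and 23.2% of all genes called. *GRHL2*, which sustains *CDH1*, rose by 0.32 with hOMF exosomes (adjusted p = 0.0068). *KLF4* fell with both, by 0.31 (adjusted p = 0.0386) and 0.33 (adjusted p = 0.0247), and both calls were lost without control replicate 3 (adjusted p = 0.101 and 0.0689) and without control replicate 1 (0.0882 and 0.0575). In all, 13 of the 18 alternatives ended the first of these calls, DESeq2 and limma among them, and 7 ended the second. *KLF5*, a related factor of basal epithelium, fell by 0.26 with hOMF exosomes (adjusted p = 0.0266), a call that 7 of the 18 ended (adjusted p up to 0.125). When control replicate 3 was left out, 0 rose and 1 fell with CAF exosomes and 1 rose and 1 fell with hOMF exosomes. None fell with hOMF exosomes without hOMF exosome replicate 1 or control replicate 1. Medians were -0.01 and -0.05 with all libraries and -0.05 and -0.08 without control replicate 3.

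Of 23 tested other mesenchymal and matrix genes, 2 rose and 4 fell with CAF exosomes, and 2 rose and 5 fell with hOMF exosomes (medians 0.00 and -0.01). That is 6 and 7 of 23, beside 18.2% and 23.2% of all genes. *ACTA2*, smooth muscle actin, rose by 0.46 (adjusted p = 0.0281) and 0.60 (adjusted p = 0.00441), the first lost without CAF exosome replicate 2 (adjusted p = 0.0926), control replicate 1 (0.0945) or control replicate 2 (0.0689), and in DESeq2. *SPARC*, a matrix glycoprotein, rose by 0.40 with CAF exosomes (adjusted p = 0.00522). *MSN*, which links actin to the membrane, fell by 0.24 with each (adjusted p = 0.0165 and 0.0125). The CAF exosome call of *MSN* was lost without CAF exosome replicate 2 (adjusted p = 0.0573) or control replicate 2 (0.0514), and the hOMF exosome call without hOMF exosome replicate 2 (0.0553). *WIPF1*, whose product binds the actin regulator WASP, fell by 2.87 and 2.92 (adjusted p = 0.00618 and 0.00416), and by 1.64 and 1.68 without control replicate 3 (adjusted p = 0.0329 and 0.0219). It had 5.82 CPM in control replicate 3. Over the 17 alternatives that tested it, all of which called it, the size of the fall varied widely. Its log2 fold change lay between -3.24 and -0.59 with CAF exosomes and between -3.35 and -0.60 with hOMF exosomes. *S100A4*, a calcium-binding protein gene, fell by 0.37 with CAF exosomes (adjusted p = 0.0379) and by 0.48 with hOMF exosomes (adjusted p = 0.00893). Of the 18 alternatives, 7 ended the first of these calls, and the second was lost without hOMF exosome replicate 2 (0.0501). Leaving out control replicate 3, 2 rose and 2 fell with CAF exosomes and 1 rose and 4 fell with hOMF exosomes (medians -0.03 and -0.02). The lowest counts of falls were 1 each, without CAF exosome replicate 2 and hOMF exosome replicate 2.

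In the partial EMT program of oral carcinoma, which includes *CDH3*, *SNAI2* and *VIM*, 3 of 24 tested genes rose and 4 fell with CAF exosomes (median 0.01), and 1 rose and 9 fell with hOMF exosomes (median -0.16). That is 7 and 10 of 24, beside 18.2% and 23.2% of all genes called, of which 11.4% were lower with hOMF exosomes. *PTHLH*, parathyroid hormone-like hormone, fell by 0.40 (adjusted p = 0.00168) and 0.77 (adjusted p = 8.65e-06). *INHBA*, an activin subunit gene, fell by 0.44 (adjusted p = 0.00415) and 0.84 (adjusted p = 2.6e-05). *PLAU*, urokinase, rose by 0.27 with CAF exosomes (adjusted p = 0.0136), and the call was lost without control replicate 3 (0.22, adjusted p = 0.0587). *PLAUR*, its receptor, fell by 0.57 with hOMF exosomes (adjusted p = 0.000933). *GJB2*, connexin 26, fell by 0.49 with hOMF exosomes (SE 0.0787, adjusted p = 0.000453). It was the 1 gene of all lists called between the 2 kinds of exosome, higher by 0.52 with CAF exosomes (adjusted p = 0.0439), though 11 of the 18 alternatives ended that call, among them each that left out an exosome library (adjusted p between 0.0592 and 0.275) and the one without control replicate 2 (0.0979). When control replicate 3 was left out, 1 rose and 5 fell with CAF exosomes, and 0 rose and 10 fell with hOMF exosomes (medians -0.06 and -0.22). Without CAF exosome replicate 2, 5 rose with CAF exosomes. Falls with hOMF exosomes lay between 7 and 10 with any 1 library left out.

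TGF-beta signalling is a main inducer of EMT. Of 23 tested genes of the pathway and its immediate targets, 2 rose and 3 fell with CAF exosomes, and 1 rose and 3 fell with hOMF exosomes (medians -0.03 and -0.02). That is 5 and 4 of 23, beside 18.2% and 23.2% of all genes. *SMAD3*, a signal transducer, fell by 0.46 (adjusted p = 0.000394) and 0.47 (adjusted p = 0.0002). *PMEPA1*, a target and feedback inhibitor of the pathway, fell by 0.48 (adjusted p = 0.00114) and 0.55 (adjusted p = 0.000233). *LTBP4*, a latent TGF-beta binding protein gene, rose by 0.44 (adjusted p = 0.00747) and 0.55 (adjusted p = 0.00117). The type II receptor gene *TGFBR2* fell by 0.30 (adjusted p = 0.0151) and 0.33 (adjusted p = 0.00641), the first lost when replicate 2 or 3 of the CAF exosome group, or control replicate 1, was left out (adjusted p between 0.0561 and 0.0745), and in limma at either pseudocount. With control replicate 3 left out, 1 rose and 3 fell in each comparison (medians -0.05 and -0.02). Rises with CAF exosomes were 1 under 7 of the 9 settings that left out a library.

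**Figure D5:**
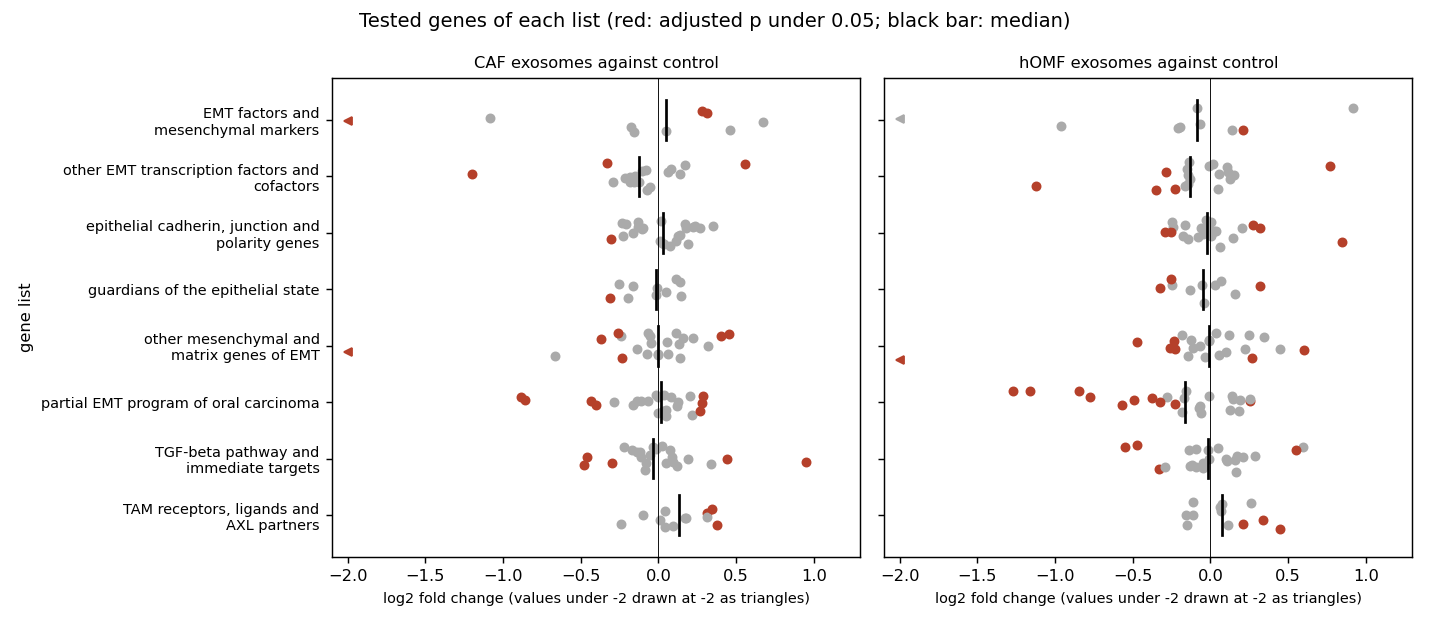
Log2 fold changes of the tested genes of each list (points) with CAF exosomes (left) and hOMF exosomes (right) against control; red marks adjusted p under 0.05, black bars are medians, and triangles are values below -2. The medians lie near 0, from -0.16 to 0.13, and called genes lie on both sides in most lists.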

How the data were processed

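Per the labels' protocols, oligo(dT)-selected RNA of Cal-27 cells was sequenced from 9 libraries in 3 groups of 3. The authors deposited expected counts, FPKM and TPM per gene in 1 table. RSEM 1.2.8 and Bowtie2 2.2.5 made them, per the submitters' processing notes, which name a mouse genome build although symbols and identifiers are human. Neither the gene models nor the strandedness used for counting is given in the sources used here. A strand-marking step is in the labels' protocols, so reads of antisense genes that overlap *VIM*, *ZEB1*, *ZEB2*, *CDH2*, *CDH3*, *TWIST1* and *AXL* exons in GENCODE release 29 may or may not be in these counts. Coordinates come from that annotation (GRCh38), joined by NCBI gene identifier, and not from the deposited table.

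Deposited expected counts, of which 90.5% to 92.0% in a library were whole to within 0.001, were rounded. Genes were filtered in edgeR 4.0.16 (minimum count 10, minimum total 15), scaled by TMM and tested over all 9 libraries, with group as the only term (6 residual degrees of freedom). The authors' deposited FPKM were used for levels between genes and in limma 3.58.1. The authors' TPM were not used. DESeq2 1.42.0 was an alternative. No columns were left without a sample. Replicate libraries differed by more than sampling noise (chi-square per degree of freedom 3.16 to 11.5).

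The 10 genes, the 7 gene lists and the 4 marker lists were chosen with earlier results of these data known, and the *ELANE*, *AZU1*, *PRTN3*, *CTSG* and *SRGN* genes after their values were seen. Named from each list are, for each exosome group against control, up to 4 called genes with the smallest p. A called gene of the junction list is not reported here.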

Additional observations from a re-analysis of the deposited data

How the results depend on the processing

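A total of 18 alternatives were run, 9 of which left out 1 library each, and 1 more for *VIM* was chosen after seeing the data. *AXL* kept its rise and its call with CAF exosomes under all of them. *ZEB2* with CAF exosomes reversed without control replicate 3, to 0.51, and lay between -3.36 and 0.51 with 1 library left out. The number of the 10 genes called with hOMF exosomes was 2, against 1, with no filter on low counts and in limma on log2(FPKM + 1) or log2(FPKM + 0.1). Between CAF and hOMF exosomes, genes called were 2 in the main test, 32 with DESeq2, and 0 with library totals without TMM factors, in limma at either pseudocount and with only the 2 groups compared. Called genes among all lists were 1 there in the main test, 3 with DESeq2 and 0 under those same 4 settings.

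With 1 library left out, genes called with CAF exosomes lay between 1343 and 2389, with hOMF exosomes between 1695 and 3103, and between the 2 kinds of exosome between 0 and 8. Called genes of the 10 lay between 1 and 3, between 0 and 2, and at 0. Called genes over all lists lay between 15 and 28, 20 and 39, and 0 and 1. Higher genes were 52.4% and 50.9% of calls with CAF and hOMF exosomes, but 63.4% and 67.1% without TMM factors, 64.0% and 68.7% in limma on log2(FPKM + 1), and 64.5% and 69.0% on log2(FPKM + 0.1).

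The groups share replicate numbers. With a replicate block, 2101 genes were called with CAF exosomes, 2718 with hOMF exosomes and 2 between them. Same-numbered libraries deviated together only weakly (r between -0.0865 and 0.111), and differently numbered ones likewise (r between -0.139 and 0.129). With 3 libraries in each group, this does not show whether the numbers pair the samples. Depth limits *VIM*, *SNAI1*, *ZEB1*, *ZEB2* and *TWIST1*, whose counts in most libraries were too few to show small changes.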
